A study of Mus musculus with 4 samples.

Results

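The 32 genes described here encode the signalling machinery of the T cell receptor, and they were found on the arrays by exact gene symbol, 24 as activating components and 8 as inhibitors. They were among 19167 genes tested and were carried by 49 probes, with 1 probe for 19 of them and several for the other 13. The study compared mouse CD4+ T cells of 2 genotypes, with 2 one-colour Agilent arrays of miR-155 knockout cells (miR-155-/-) and 2 of wild-type cells (miR-155+/+) as the control. All the cells had been stimulated with anti-CD3e and anti-CD28 in the presence of TGFb and IL-6, the setting that gives rise to T helper 17 (Th17) cells. They were then sorted as CD4+ cells carrying a red fluorescent reporter (RFP) of IL-17F. Both genotypes were therefore measured after stimulation through the receptor studied here, and no array of resting cells was analysed here. The labels give neither the age of the mice nor a link from an array to an animal or culture. The design text calls the arrays biological replicates, and since no label names separate cultures, each p-value reflects how far these arrays differ, which may be technical in part.

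The T cell receptor has no enzyme of its own. When antigen or an antibody to CD3 engages it, the kinases LCK and FYN phosphorylate tyrosine motifs on the CD3 and zeta chains, and ZAP-70 binds there and phosphorylates the adaptors LAT and SLP-76. These scaffolds recruit phospholipase C-gamma, VAV1 and NCK, and the signal then divides into a calcium branch that ends at NFAT, a protein kinase C-theta branch that ends at NF-kappaB, and a Ras branch opened by RASGRP1. Inhibitors act at each step. CSK and the phosphatases SHP-1 and PTPN22 restrain the kinases, diacylglycerol kinases remove the lipid that activates RASGRP1 and protein kinase C-theta, and CBL-B tags signalling proteins with ubiquitin. In Th17 cells the strength of this signal is known to bear on which cytokines are made.

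The microRNA deleted in the knockout is shown first, because all differences below are between cells with and without it. RefSeq places its mature guide strand at chr16:84714143-84714165 of GRCm38.p6 on the plus strand, and capitals mark the seed, bases 2 to 8, through which a microRNA pairs with its target transcripts.
mmu-miR-155-5p: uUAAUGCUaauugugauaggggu

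Values below are log2 processed signals after subtraction of each array's 75th percentile over non-control probes, and each gene is given by its brightest tested probe. A difference is knockout minus wild type on that scale, so that -1 would be a signal lower by a factor of 2. Levels of different probes are not comparable with each other. The share of spots well above background ran from 63.5% to 69.8%, and 0 non-control spots were saturated. All 32 members passed the filter on signal, which asked that a probe exceed background clearly in both replicates of 1 genotype or the other, and each did so on every array with a usable spot. Knockout array 1 stood apart. On 100% of its spots well above background the processed signal equalled the background-subtracted signal, without the multiplicative detrending of the scanner software. On each other array 100% of such spots had been detrended. In the 2 right-hand corner blocks of the array layout, 129 of 1303 tested probes were over 8-fold dimmer on knockout array 1 than on any other array. Such probes numbered 53 on wild-type array 2 and 0 on each of the other 2 arrays. The brightest probes of Cd3d, Lat, Plcg1 and Cblb lie in these blocks. All arrays shared 1 slide, with wild type in its row 1 and the knockout in row 2, and the effect of the row cannot be told apart from that of the genotype.

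No member of the pathway passed the test. In bulk samples such as these, fewer cells of a type and less RNA per cell cannot be told apart. limma with Benjamini-Hochberg adjustment called 0 of the 32 at an adjusted p under 0.05, as it called 0% of all 19167 genes, and the members' adjusted p ran from 0.351 to 0.992. At an unadjusted p under 0.05 there were 3 members, Bcl10 and Dgkz below and Ubash3a above wild type, which is 9.38% of the 32 against 11.3% of all genes (7.22% above and 4.12% below). Without wild-type replicate 1 the count of genes at an adjusted p under 0.05 was 27 in place of 0, with 0 members among them, and Txk alone of the members had an unadjusted p under 0.05. Over the alternatives that kept all arrays the members at that p numbered 1 to 6. Without the corner blocks there were 4 of the 30 members still measured, with Cblb added, then above wild type by its other probe. There were 6 under a trended prior variance (Cblb, Dgka and Vav1 added) and 5 with normexp or with knockout array 1 detrended (Cblb and Dgka added). Median scaling and the authors' deposited value table also gave 5, but with Cd28, Dgka and Nfatc2 added and Ubash3a lost. Ubash3a was lost as well without the filter on low signal, and with the replicate block both Ubash3a and Dgkz were lost. Both knockout arrays lay above both wild-type arrays for 7 members and below them for 10, so the groups did not overlap for 54.8% of the 31 members with a value on every array, against 47.8% of all genes (25.4% above and 22.4% below). The members' differences were small, with a median size of 0.15 against 0.19 over all genes, and 22 of 32 were under 0.2 in size, or 68.8% against 52.9%. Replicate arrays also differed less for the members, by 0.06 at the median in wild type and 0.14 in the knockout, against 0.16 and 0.19 over all genes.

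**Figure D1:**
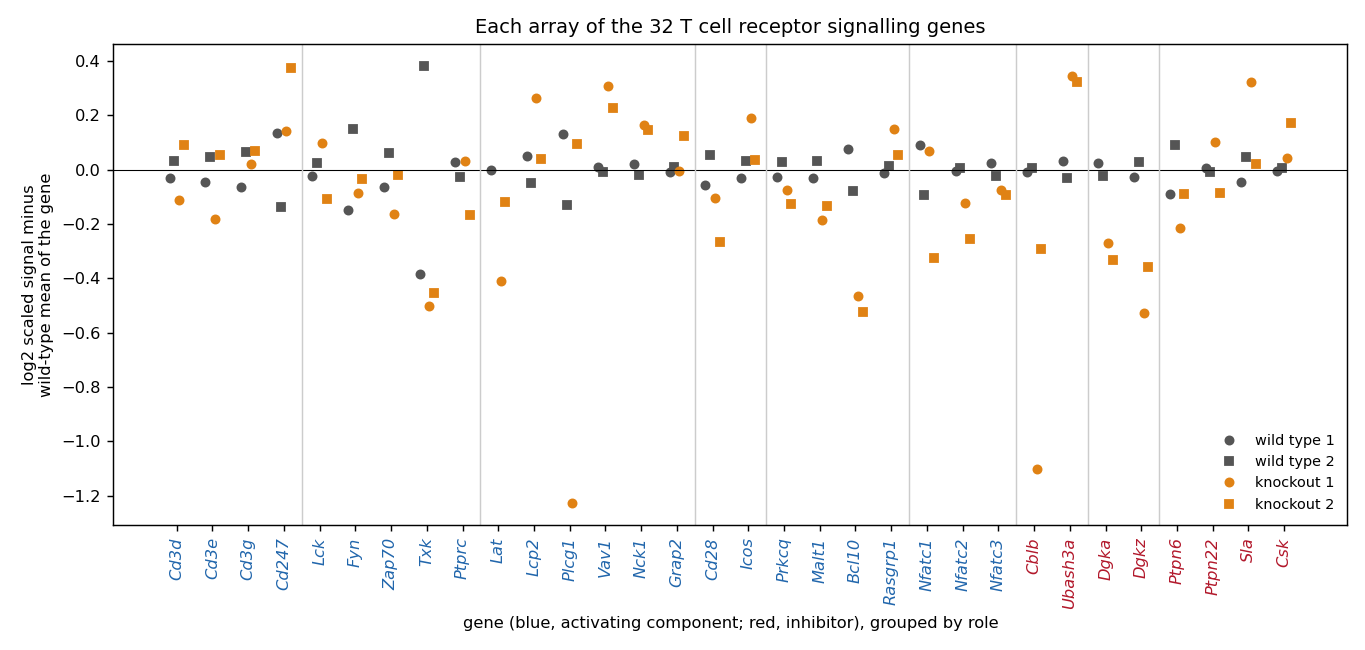
Log2 scaled signal of each array minus the wild-type mean of the same gene, for the 32 members grouped by role. Grey points are the 2 wild-type arrays and orange points the 2 knockout arrays. The lowest points are knockout array 1 of Plcg1 and of Cblb, both from corner blocks.

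The chains of the receptor complex were close to wild type. Cd3e, whose product is the chain bound by the stimulating antibody, was at 6.04 and 6.13 in wild type and at 5.91 and 6.14 in the knockout. Its difference was -0.06 ± 0.14 (SE, n = 2 arrays per genotype), with a 95% interval of -0.46 to 0.33. Each SE and interval given here is limma's moderated one, for which the variance of a gene is drawn towards that of all genes tested. Cd3g, the gamma chain, was at 5.72 and 5.85 in wild type and at 5.81 and 5.86 in the knockout, and Cd3d, the delta chain, at 6.94 and 7.01 against 6.86 and 7.07. The knockout values straddled or overlapped the wild-type ones for all these CD3 genes, with differences of 0.05 for Cd3g and -0.01 for Cd3d. These small values had no fixed sign. Cd3d turned positive under other processing, as without knockout replicate 1 (0.09), and Cd3g negative, as with median scaling (-0.11). Cd247, the zeta chain that carries most of the tyrosine motifs, was at 1.98 and 1.71 in wild type and 1.99 and 2.22 in the knockout. The groups did not overlap, but knockout array 1 was almost level with wild-type array 1. The difference was 0.26 ± 0.17 (SE), with an interval of -0.20 to 0.72, and it was 0.12 without wild-type replicate 2 and 0.39 without wild-type replicate 1. A second Cd247 probe gave -0.21, the opposite sign, and the mean of both 0.023. Genes Cd3g, Cd3d and Cd3e neighbour each other on mm9 chromosome 9, with probes at chr9:44777868-44777927, chr9:44794171-44794402 and chr9:44806828-44806887. Exon annotation on mm9 was not used here.

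The kinases that start the signal and the phosphatase CD45 also lay near wild type. Lck, the Src-family kinase held at the co-receptor CD4, was at 7.21 and 7.26 in wild type and 7.34 and 7.13 in the knockout, so the 2 knockout arrays lay on either side of wild type. Zap70, the kinase that docks on phosphorylated zeta chains, was at 6.58 and 6.70 against 6.48 and 6.62, a difference of -0.09 with an interval of -0.45 to 0.27. Its second probe gave 0.14. Fyn, the second Src-family kinase, had a difference of -0.06 and Ptprc, which encodes CD45 and frees LCK from its inhibitory phosphate, of -0.07. Txk, a Tec-family kinase of T cells, showed how 1 array can carry a value. It was at 1.51 and 2.27 in wild type and at 1.39 and 1.44 in the knockout, for a difference of -0.48 ± 0.29 (SE), and limma gave an adjusted p of 0.551. Only wild-type array 2 stood far from the rest. Without that array the difference was -0.09, and without wild-type array 1 it was -0.86.

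Among the adaptors and proximal effectors, Vav1 had the clearest separation. Vav1, a guanine nucleotide exchange factor that links the receptor to the actin skeleton, was at 5.69 and 5.67 in wild type and at 5.99 and 5.90 in the knockout. Its difference was 0.27 ± 0.12 (SE), a 1.20-fold signal, with an unadjusted p of 0.0841 and an adjusted p of 0.478 by limma. A second probe, at 3.43 and 3.54 in wild type and 3.69 and 3.77 in the knockout, gave 0.24, and all knockout values exceeded all wild-type values on both probes. Nck1, an adaptor to the actin machinery, was at 2.02 and 1.97 against 2.16 and 2.14, without overlap and with a difference of 0.16. Lcp2, which encodes SLP-76, gave 0.15 from its brightest probe and 0.14 from the other, and Grap2, which encodes the GADS adaptor that joins SLP-76 to LAT, gave 0.06 and -0.10. With median scaling, which moved the median of all genes from 0.016 to -0.14, Nck1, Lcp2 and Grap2 turned to -0.0045, -0.0095 and -0.10, while Vav1 remained positive at 0.11.

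Lat and Plcg1 were measured in corner blocks. Lat, the membrane scaffold on which the signalling complex forms, was at 5.82 on wild-type array 1 and at 5.41 and 5.70 in the knockout. Its spot on wild-type array 2 was marked non-uniform and left out, so its difference of -0.26 ± 0.21 (SE) rests on 1 wild-type value. It was -0.12 without knockout replicate 1 and -0.41 without knockout replicate 2. Plcg1, the phospholipase that makes the second messengers of the pathway, was at 4.83 and 4.57 in wild type and at 3.48 and 4.80 in the knockout. Knockout array 2 lay within the wild-type range and knockout array 1 alone lay below it. The difference of -0.57 ± 0.48 (SE) became 0.09 without knockout replicate 1, -0.18 with knockout array 1 detrended, and 0.30 from the brightest probe outside the corner blocks. A dimmer probe outside the blocks gave -0.28, and the groups overlapped on both of these probes. The direction for Plcg1 therefore differed between probes outside the blocks as well.

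The costimulatory receptors pointed in different directions. Cd28, the receptor that the second culture antibody engages, was at 5.86 and 5.96 in wild type and at 5.81 and 5.65 in the knockout, both below both wild-type arrays. Its difference was -0.18 ± 0.13 (SE) with an adjusted p of 0.600 by limma. Icos, the inducible relative of CD28 on activated T cells, was at 5.14 and 5.20 against 5.36 and 5.21, a difference of 0.11, and its other probes gave 0.20 and 0.00.

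Bcl10 had the smallest p of all members. Its product acts with MALT1 in the complex that carries the signal from protein kinase C-theta to NF-kappaB. Bcl10 was at 2.39 and 2.24 in wild type and at 1.85 and 1.79 in the knockout, and the gap between the groups was wider than the spread within either. The difference was -0.49 ± 0.13 (SE), a 1.41-fold lower signal, with an unadjusted p of 0.0166 and an adjusted p of 0.351 by limma. Leaving out any 1 array gave -0.57 to -0.42. Its probe lies at chr3:145596846-145596905 on mm9. The other genes of this branch were below wild type by less. Malt1, the paracaspase partner of BCL10, was at 5.56 and 5.63 against 5.41 and 5.46, a difference of -0.16, and Prkcq, protein kinase C-theta, at 3.79 and 3.84 against 3.74 and 3.69, a difference of -0.10. Both had groups that did not overlap, and both had intervals that include 0, of -0.48 to 0.16 and -0.42 to 0.22. Rasgrp1, the exchange factor that opens the Ras branch, was on the other side at 0.10, with 0.11 from its second probe and -0.058 with median scaling.

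The 3 NFAT factors, which calcineurin sends to the nucleus when calcium rises, were all slightly below wild type. Nfatc2 was at 5.60 and 5.61 in wild type and at 5.48 and 5.35 in the knockout, a difference of -0.19 ± 0.12 (SE). Nfatc3 was at 1.23 and 1.19 against 1.14 and 1.12, a difference of -0.08. Nfatc1, the member that activation induces, was at 2.28 and 2.10 against 2.26 and 1.87, so its groups overlapped, and its difference of -0.13 turned to 0.07 without knockout replicate 2. Of the probes of these 3 genes, all 7 had differences below 0, from -0.50 for the dimmer Nfatc2 probe to -0.01. That -0.50 came from knockout array 2 alone, at -1.29, since knockout array 1 at -0.31 lay between the wild-type values of -0.37 and -0.23.

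**Figure D2:**
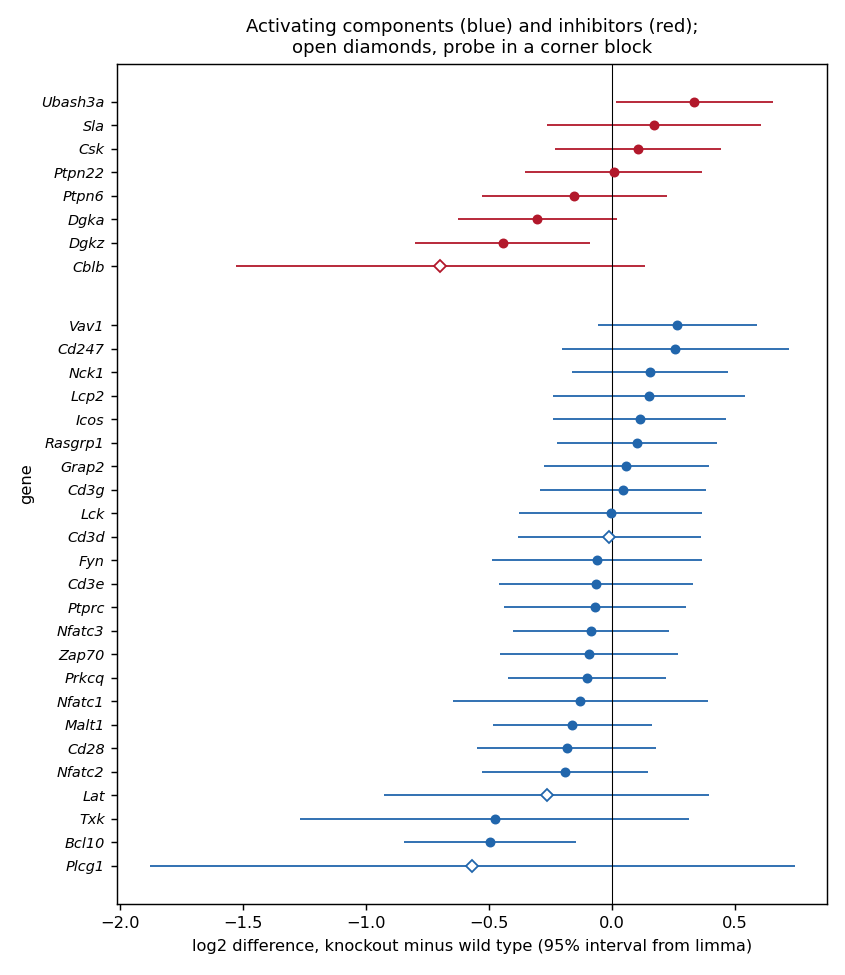
Log2 difference (knockout minus wild type) of each member with its 95% interval from limma, activating components in blue below and inhibitors in red above. Only the intervals of Bcl10, Dgkz and Ubash3a exclude 0 before adjustment, and the widest, of Plcg1 and Cblb, belong to probes in corner blocks (open diamonds).

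Among the inhibitors, both diacylglycerol kinases on the member list lay below wild type. These enzymes convert diacylglycerol to phosphatidic acid and so end the signal to RASGRP1 and protein kinase C-theta. Dgkz was at 4.26 and 4.32 in wild type and at 3.76 and 3.93 in the knockout, so that the knockout signal was 1.36-fold lower (-0.44 ± 0.13, SE). Its unadjusted p was 0.0256 and its adjusted p 0.388 by limma, and with the replicate block the unadjusted p was 0.0604. Dgka was at 5.61 and 5.56 against 5.31 and 5.25, a difference of -0.30 ± 0.12 (SE), with an unadjusted p of 0.0599 and an adjusted p of 0.451. Neither gene overlapped between genotypes, and leaving out any 1 array gave -0.53 to -0.36 for Dgkz and -0.33 to -0.27 for Dgka. Each was measured by 1 probe, that of Dgkz at chr2:91773047-91773106 and that of Dgka at chr10:128157256-128157315 on mm9. Dgke, a diacylglycerol kinase among the further inhibitory genes below, lay on the other side at 0.20, also without overlap.

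Ubash3a lay above wild type. Its product, also called STS-2, is a member of a phosphatase-like family that dampens receptor signalling in T cells. Ubash3a was at 1.68 and 1.62 in wild type and at 1.99 and 1.97 in the knockout, with a gap much wider than the spread within either genotype. The difference was 0.33 ± 0.12 (SE), a 1.26-fold higher signal, with an unadjusted p of 0.0432 and an adjusted p of 0.425 by limma. It was 0.30 to 0.37 when any 1 array was left out and 0.17 with median scaling.

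Cblb, the ubiquitin ligase that raises the threshold for activation, gave opposite answers from its 2 probes. The brighter probe, in a corner block, was at 1.74 and 1.75 in wild type and at 0.64 and 1.46 in the knockout. Its difference was -0.70 ± 0.30 (SE), and limma gave an unadjusted p of 0.0810 and an adjusted p of 0.474. Knockout array 1 was far below knockout array 2. The difference was -0.29 without knockout replicate 1 and -1.10 without knockout replicate 2. With knockout array 1 detrended it was -0.50 (unadjusted p 0.0491 by limma). The dimmer probe, outside the blocks, was at -2.73 and -2.84 in wild type and at -2.35 and -2.30 in the knockout, a difference of 0.46. With the corner blocks left out, limma gave this probe an unadjusted p of 0.0174 and an adjusted p of 0.309. Neither probe overlapped between genotypes, so the direction for Cblb depends on the probe. The probes lie at chr16:52207889-52207948 and chr16:52205507-52205566 on mm9.

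The remaining inhibitors were near wild type. Ptpn6, which encodes the phosphatase SHP-1, was at 4.68 and 4.86 against 4.55 and 4.68, a difference of -0.15. Ptpn22, a phosphatase that acts with CSK on LCK, was at 4.66 and 4.65 against 4.75 and 4.57, a difference of 0.01 with an interval of -0.35 to 0.37. Csk, the kinase that places the inhibitory phosphate on LCK, had a difference of 0.11, which median scaling turned to -0.053, and Sla, the adaptor SLAP that promotes loss of receptor chains, of 0.17. Sla was at 3.48 on knockout array 1 and at 3.18 on knockout array 2, and the latter lay between the wild-type values of 3.11 and 3.20.

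**Figure D3:**
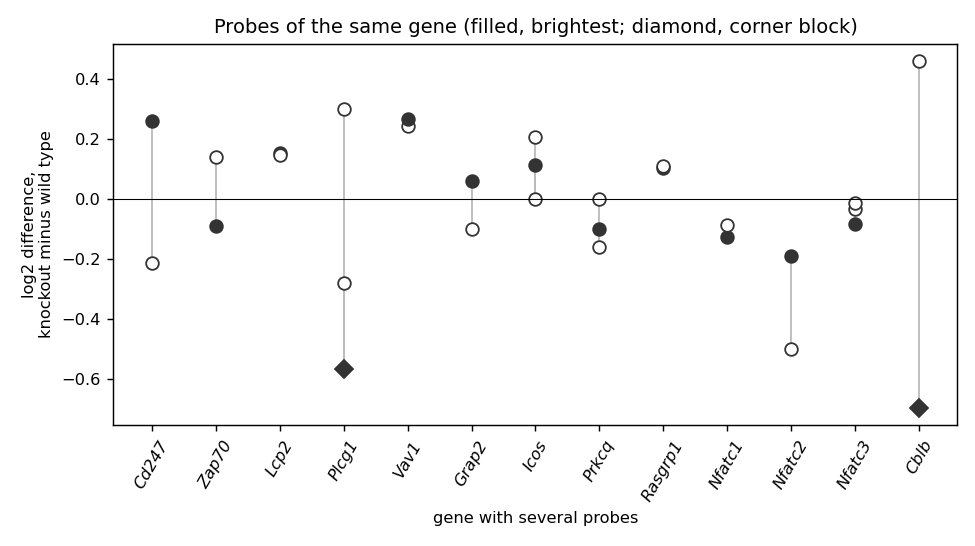
Log2 difference (knockout minus wild type) of every probe for the 13 members with several probes; filled symbols are the brightest probe and diamonds lie in a corner block. Probes of Vav1, Lcp2 and Rasgrp1 lie almost on each other, while those of Cblb, Plcg1 and Cd247 lie on both sides of 0.

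Set against each other, the activating components and the inhibitors had medians whose difference depended on the arrays and probes used. The median was -0.066 over the 24 activating components, of which 16 were below and 8 above wild type, and -0.072 over the 8 inhibitors, of which 4 were below and 4 above. Over all 19167 genes the median was 0.016, and 47.6% were below wild type. The activating median exceeded the inhibitory one by 0.0062. Leaving out 1 array moved this difference to as much as 0.073 (without wild-type replicate 1) and 0.061 (without knockout replicate 1), and the activating median to -0.025 (without wild-type replicate 2) and -0.026 (without knockout replicate 1). Without the corner blocks the difference was -0.12, because Cblb was then given by its other probe and the inhibitory median became 0.058. At an unadjusted p under 0.05 were 1 of the 24 activating components (4.17%) and 2 of the 8 inhibitors, 1 in each direction, against 11.3% of all genes. The members were chosen with results of these data known, so counts and medians are given as a description and no list was tested. Differences under 0.2 in size made up 18 of the 24 activating components and 4 of the 8 inhibitors. For 16 of the 32 members the 95% interval lay within 0.5 of 0 on both sides, as it did for 5123 of the 19167 genes, which include dimmer ones.

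**Figure D4:**
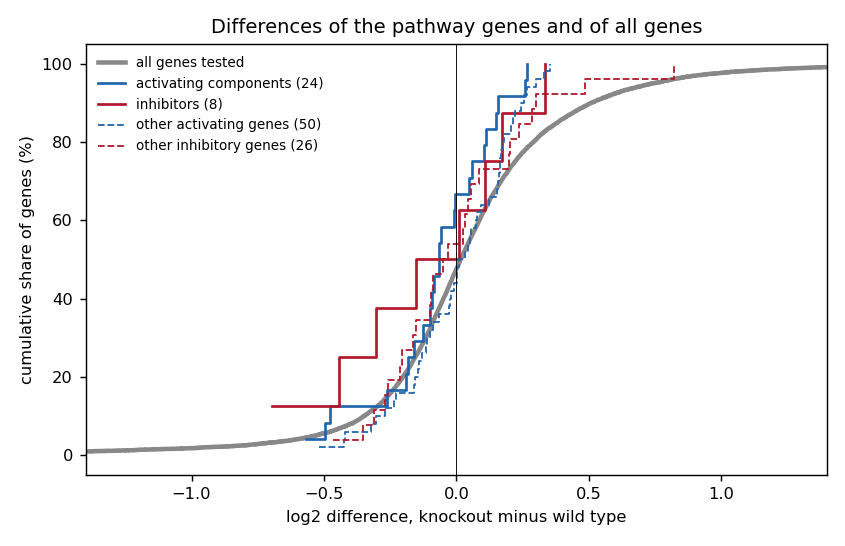
Cumulative share of genes (%) against the log2 difference, knockout minus wild type, for all genes tested (grey), the members (solid) and other genes of the pathway (dashed). The curve of the activating components reaches 100% at the 0.27 of Vav1 and that of the inhibitors at the 0.33 of Ubash3a, while all genes extend further on both sides.

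**Figure D5:**
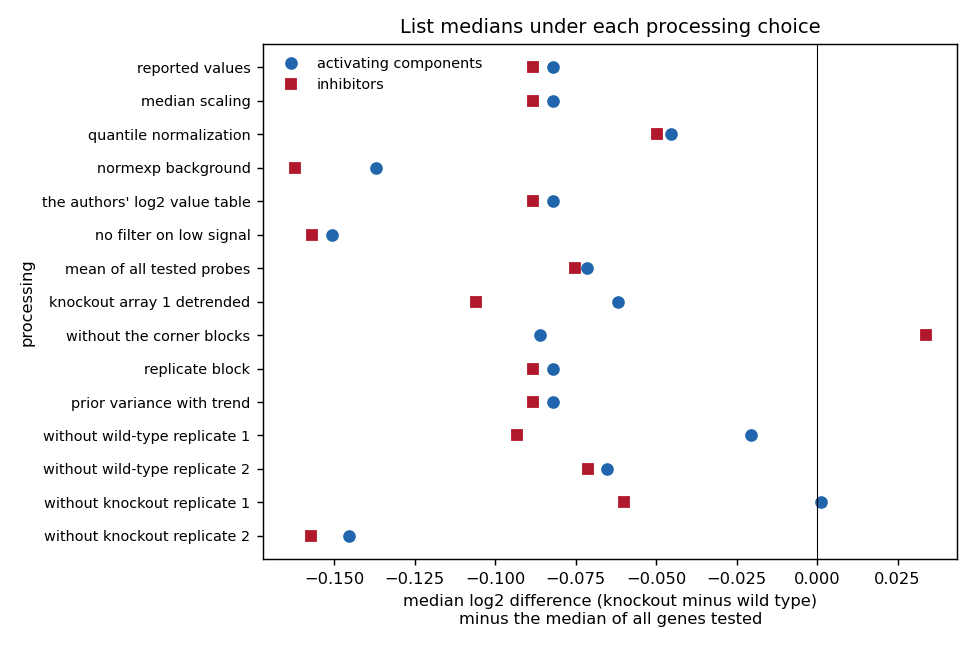
Median log2 difference of the activating components (blue circles) and the inhibitors (red squares), minus the median of all genes, under each processing choice. As reported the values are -0.082 and -0.088, and the inhibitors lie above 0 only without the corner blocks (0.034).

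Other genes of the pathway also gave 0 calls. Of 51 further activating genes 50 were tested under the listed symbol, and 0 passed the adjusted threshold. At an unadjusted p under 0.05 were 2 of the 50, both below wild type, or 4% against 11.3% of all genes (4.12% below). Stim2, a calcium sensor of the endoplasmic reticulum, was at -0.044 and 0.066 in wild type and at -0.51 and -0.50 in the knockout, which gives -0.52 ± 0.12 (SE), and its probe lies in a corner block. Its unadjusted p was 0.0115 and its adjusted p by limma 0.333. The median of the 50 was 0.020. Cd4 was at -0.16 and the store-operated channel gene Orai1 at -0.09, both with overlapping groups.

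Of 27 further inhibitory genes 26 were tested, and 0 passed the adjusted threshold. At an unadjusted p under 0.05, 2 lay above and 1 below wild type, which is 11.5% of the 26 against 11.3% of all genes. Rnf128, which encodes the ubiquitin ligase GRAIL tied to unresponsive T cells, was at 1.38 and 1.18 in wild type and at 2.27 and 1.93 in the knockout, a difference of 0.82 ± 0.18 (SE) and the widest of any gene on these pathway lists. Inpp5d, which encodes the lipid phosphatase SHIP1 and is a reported miR-155 target, was at 3.74 and 3.72 against 4.29 and 4.13, a difference of 0.48 ± 0.13 (SE). Lax1, an adaptor that dampens receptor signals, was at -0.98 and -0.80 against -1.49 and -1.24, which gives -0.47 ± 0.16 (SE), also from a corner block. Their adjusted p by limma was 0.328, 0.355 and 0.419. The median of the 26 was -0.042. Of the feedback inhibitors that T cell activation induces, Ctla4 was at -0.03 and Tnfaip3 at 0.05, both with overlapping groups, and the calcineurin inhibitor gene Rcan1 was at -0.31 without overlap.

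RefSeq windows upstream of the 3 members with an unadjusted p under 0.05, and of Dgka beside Dgkz, are shown so that genes that lay on the same side can be compared at their starts. Each holds the 250 bases before the outermost start in the table, 5′ to 3′ on the gene's strand, on GRCm38.p6. Capitals mark GGAAA on either strand, the core that NFAT and also ETS factors bind. The palindromic AP-1 site TGANTCA was searched as well, and overlapping matches were allowed. The windows are chr3:145924012-145924261 (plus strand) for Bcl10, chr10:128745085-128745334 (minus) for Dgka, chr2:91963564-91963813 (minus) for Dgkz and chr17:31207816-31208065 (plus) for Ubash3a.
Bcl10: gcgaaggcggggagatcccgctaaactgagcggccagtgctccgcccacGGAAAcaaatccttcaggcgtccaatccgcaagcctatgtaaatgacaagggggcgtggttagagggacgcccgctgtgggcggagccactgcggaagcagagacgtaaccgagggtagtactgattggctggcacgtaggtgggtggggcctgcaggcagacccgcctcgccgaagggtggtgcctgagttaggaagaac
Dgka: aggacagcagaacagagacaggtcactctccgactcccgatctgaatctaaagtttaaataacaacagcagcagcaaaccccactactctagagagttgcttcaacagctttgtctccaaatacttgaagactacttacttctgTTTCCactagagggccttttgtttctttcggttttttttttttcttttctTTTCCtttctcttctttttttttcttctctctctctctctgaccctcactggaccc
Dgkz: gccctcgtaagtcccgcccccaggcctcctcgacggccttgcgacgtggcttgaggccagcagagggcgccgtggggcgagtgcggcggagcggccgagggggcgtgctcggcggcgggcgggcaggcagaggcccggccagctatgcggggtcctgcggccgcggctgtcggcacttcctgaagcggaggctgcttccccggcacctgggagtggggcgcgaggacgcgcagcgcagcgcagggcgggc
Ubash3a: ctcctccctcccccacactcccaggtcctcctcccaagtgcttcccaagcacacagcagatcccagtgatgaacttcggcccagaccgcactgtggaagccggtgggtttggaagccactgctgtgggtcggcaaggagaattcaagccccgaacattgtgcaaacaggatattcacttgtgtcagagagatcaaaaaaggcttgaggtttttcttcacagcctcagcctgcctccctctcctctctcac
GGAAA was found at 1 place in the Bcl10 window and at 2 places in that of Dgka, and it was not found in those of Dgkz and Ubash3a, although the window of the other Dgkz start, not shown, held 1. Over all 32851 windows of this length 55.6% held it, as did 28 of the 41 windows of the 27 members in the table. TGANTCA was in 0 of the 41 members' windows and in 6.75% of all windows. The E-box CACGTG, also searched, was in 3 of the 41 and in 6.02% of all. The window of Dgkz had 77.6% G and C, that of Dgka 41.2%, those of Bcl10 and Ubash3a 62.4% and 55.6%, and the median window 52.4%. A match is only a run of letters, and these arrays do not show which start a transcript used.

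The arrays carried the markers of T cells, and the pan T cell list had a median difference of -0.064. Of its 11 tested genes 1 had an unadjusted p under 0.05, or 9.09% against 11.3% of all genes. This gene was Trat1, an adaptor of the receptor complex, at -1.5 and -2.01 in wild type and -0.20 and -0.23 in the knockout. The Trat1 difference was 1.54 ± 0.21 (SE), and limma gave an adjusted p of 0.270. Of the 11, 5 are members described above. Among markers of CD8 T cells, natural killer cells and gamma-delta T cells, 8 of 10 were tested, with 4 above and 4 below wild type. At an unadjusted p under 0.05 were Cd8a, Klra8 and Fcer1g, at 1.30, 1.66 and 0.94, or 37.5% of the 8 against 11.3% of all genes. On the other side Klrd1 was at -0.47 without overlap, Klrk1 at -0.13, Cd8b1 at -0.13 and Sox13 at -0.08. Summed linear signals add probes that are not comparable, so each sum mostly follows its brightest probe. For this list it ran from 17.5 to 20.7 in wild type and from 13.8 to 17.1 in the knockout, with Klrd1 giving 76.3% to 88.4% of it. Without Klrd1 it ran from 2.4 to 2.6 and from 3.27 to 3.5.

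Of the B cell markers 6 of 7 were tested, with 4 above and 2 below wild type. Cd79b was at 1.16, Ebf1 at -0.97 and Cd22 at -0.60, all at an unadjusted p under 0.05, or 50% of the 6 against 11.3% of all genes. The B cell sums were 3.0 to 3.99 in wild type and 4.43 to 4.87 in the knockout, and without Cd79b 1.82 to 2.15 and 1.35 to 1.36. The probes of Cd79b and Cd22 both lie in a corner block, so the sums without Cd79b still hold a corner probe. All 8 macrophage and dendritic cell markers were tested, with 6 above and 2 below wild type. Cd74 was at 0.48 with an unadjusted p of 0.0280 by limma, and it alone was under 0.05 (12.5% of the 8 against 11.3% of all genes). Mpeg1 at -1.24 and Cd14 at -0.67 lay below wild type without overlap. Sums of this list were 9.80 to 10.1 against 12.4 on both knockout arrays, and without Cd74 5.81 on both wild-type arrays against 6.13 to 7.08. Of the neutrophil, mast cell and erythroid markers 3 of 9 were tested, with 0 at that p and sums of 1.2 to 1.33 and 1.1 to 1.28, mostly from Elane. Of the defining markers, Ncr1, Klrb1c, Ms4a1, Ngp, S100a8, S100a9, Cpa3, Mcpt4 and Hbb-b1 were not among the genes tested, either for low signal or because their name was not matched. The part of such cells in the members' values was not tested.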

How the data were processed

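RNA of 4 samples was hybridised to 1 array each and labelled with Cy3. The authors deposited the scanner output (Agilent Feature Extraction, version 10.5.1.1, as the file headers name it). Its processed signal is, per the file headers, an intensity on a linear scale that the software had corrected for background and, on most spots, for spatial trend. The fitted trend is deposited per spot as a linear ratio. The authors' deposited log2 value table equals log2 of these signals less 1 constant for each array, within 0.001 for 99.4% to 99.5% of probes, and served as an alternative only.

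Control spots and outlier flags were left out, spots of a probe averaged, and log2 signals shifted by each array's 75th percentile. Of 55681 probes, 26762 were named by their accession in RefSeq's GRCm38.p6 table, 3819 by a matching symbol and 639 through a synonym. The others kept the file's name. The brightest tested probe of 35944 gene probes represented a gene. The genotypes entered limma (3.58.1, under R 4.3.3; lmFit and eBayes, 2 residual and 2.16 prior degrees of freedom), which was tested on simulated data, with Benjamini-Hochberg adjustment over 19167 genes at 0.05. Of these genes, 21 lacked a value on 1 array. An exact permutation test of 1 gene cannot give a two-sided p below 0.333 here. The number of arrays limits the precision. Tables and plots used Python 3.11.15, pandas 2.3.3 and matplotlib 3.10.9.

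The members and lists were chosen with earlier results of these data known. All 32 members are named, with the other pathway genes and markers at an unadjusted p under 0.05, except 1 pathway gene that is not reported here. Cd4, Orai1, Ctla4, Tnfaip3, Rcan1, Dgke and the markers without that p were named after their values were seen. The alternatives were the scaling, background correction, filter, probe choice, detrending, corner blocks, replicate block, variance prior and each array left out.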

Additional observations from a re-analysis of the deposited data

How the results depend on the processing

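Under the 14 alternatives 445 member differences were computed, of which 40 had the opposite sign. Of these, 16 came from median scaling and the authors' table, which are in effect 1 scaling and shift every gene measured on all arrays alike. The other 24 concerned 12 members, and a further 5 members turned only under that shift. The count of members at an adjusted p under 0.05 was 0 in every setting, and so was that of other pathway genes. Median scaling and the authors' value table each moved the median of all genes to -0.14, that of the activating components to -0.226 and that of the inhibitors to -0.232, and 24.9% of genes at an unadjusted p under 0.05 were then higher, against 63.7% as reported (51.6% after quantile normalization, 55.4% with knockout array 1 detrended). Under both, Cd3g was at -0.11, Lcp2 at -0.0095, Nck1 at -0.0045, Grap2 at -0.10, Icos at -0.047, Rasgrp1 at -0.058, Ptpn22 at -0.15 and Csk at -0.053. Quantile normalization gave 0.022 for Cd3d and 0.034 for Lck. Normexp gave 0.033 for Cd3d, -0.030 for Cd3g, -0.071 for Ptpn22 and 0.025 for the activating minus the inhibitory median. Averaging a gene's probes gave 0.023 for Zap70 and -0.021 for Grap2. Detrending knockout array 1 gave 0.044 for Cd3d, -0.064 for Cd3g, -0.12 for Ptpn22, -0.11 for the inhibitor median and 0.044 for the contrast of medians. Without the corner blocks Plcg1 was at 0.30 by its brightest remaining probe (-0.28 by the other), Cblb at 0.46, the inhibitor median at 0.058 and the contrast at -0.12. The cause was not tested in any of these.

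Leaving out 1 array at a time, which assumes that the lone sample of a genotype varies like the other group, gave 0 to 27 genes past the threshold (27 without wild-type replicate 1). The activating median ran from -0.075 to -0.025, the inhibitor median from -0.11 to -0.030 and the contrast from 0.0057 to 0.073. Members whose sign turned ran from -0.11 to 0.091 (Cd3d), -0.18 to 0.053 (Cd3e), -0.018 to 0.11 (Cd3g), -0.11 to 0.10 (Lck), -0.21 to 0.090 (Fyn), -0.17 to 0.032 (Ptprc), -0.0052 to 0.12 (Grap2), -0.32 to 0.070 (Nfatc1), -1.23 to 0.093 (Plcg1) and -0.085 to 0.10 (Ptpn22).

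The deviations of arrays with the same replicate number from their genotype's mean had a correlation of -0.00092 over the genes tested. With 2 arrays per genotype both replicate numbers give this same value, so it cannot show whether the numbers mark pairs. With the replicate block 0 genes and 0 members passed the adjusted threshold, 1710 genes had an unadjusted p under 0.05, and Bcl10 was the 1 member among them, at the same difference of -0.49. Normexp gave 4238 genes at that p against 2174 as reported. With 2 arrays per genotype, an interval within 0.5 of 0 was reached for 16 of 32 members.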
